A study of Homo sapiens with 11 samples.

Results

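Day 3 is the middle of the 3 days on which RNA was taken from engineered myometrial microtissues (EMMIs), small tissues made to quantify how strongly oxytocin contracts them and that form over days 1 to 6. The day 3 libraries, 4 of 11 in all, were chosen by the day in their labels and were set against the equal-weight average of the 3 day 1 and the 4 day 6 libraries. Every library is from hTERT-HM, human myometrial smooth muscle cells that telomerase immortalised, with the genotype WT, and the day is the only treatment named. The tissues therefore stand for 1 line, and the labels do not say whether the libraries of a day were separate cultures, so that the p-values speak of the spread between these libraries alone, and that spread may be technical. Day of sampling and anything else done on that day cannot be told apart.

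The myometrium is the smooth muscle wall of the uterus. Its cells express a contractile programme driven by serum response factor and its coactivator myocardin, couple electrically through connexin 43 gap junctions, and lay down collagen and matricellular glycoproteins. Stretched or activated myometrial cells also make prostaglandins, chemokines and cytokines of the interleukin 6 family, many of them through NF-kB. Ribosomal proteins, the protein subunits of the ribosome, are encoded by messenger RNAs that mostly begin with a run of pyrimidines at the 5′ end.

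A gene was called a peak when its RNA was higher on day 3 than the average of days 1 and 6, than day 1 alone and than day 6 alone, each at an adjusted p under 0.05 in edgeR's quasi-likelihood test over 18245 genes. A dip was the reverse. By this rule 851 genes peaked (4.66% of those tested) and 680 dipped (3.73%). In 787 of the peaks (4.31% of the genes tested) all 4 day 3 libraries lay above all 7 others, and in 584 of the dips (3.2%) all lay below. Most of these differences were small, with a median of 1.35-fold among peaks and 1.43-fold among dips, and 108 peaks and 91 dips reached 1 on the log2 scale. Day 6 was not called against day 1 in 465 peaks and 423 dips (21.3% of all genes were higher and 18.7% lower on day 6 than on day 1), was higher in 31 peaks and 234 dips, and was lower in 355 peaks and 23 dips.

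Against the average of days 1 and 6 alone, 3221 genes were higher on day 3 (17.7%) and 3198 lower (17.5%). Of the higher genes 2087 had a call the same way against day 6 only and 194 against day 1 only. Among the lower genes these counts were 2305 and 146. Against day 1, 1255 genes were higher on day 3 (6.88%) and 1077 lower (5.9%), and against day 6, 4277 were higher (23.4%) and 4825 lower (26.4%). Scaling by library totals instead of TMM factors moved the median day 3 difference of all genes to -0.14, from -0.02, and gave 1686 higher and 5741 lower genes, 472 peaks and 1208 dips. Without day 1 replicate 1 there were 526 peaks and 379 dips, without day 1 replicate 2 there were 477 and 345, and without day 3 replicate 1 or replicate 3, each left out alone, the dips numbered 444 or 451.

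**Figure D1:**
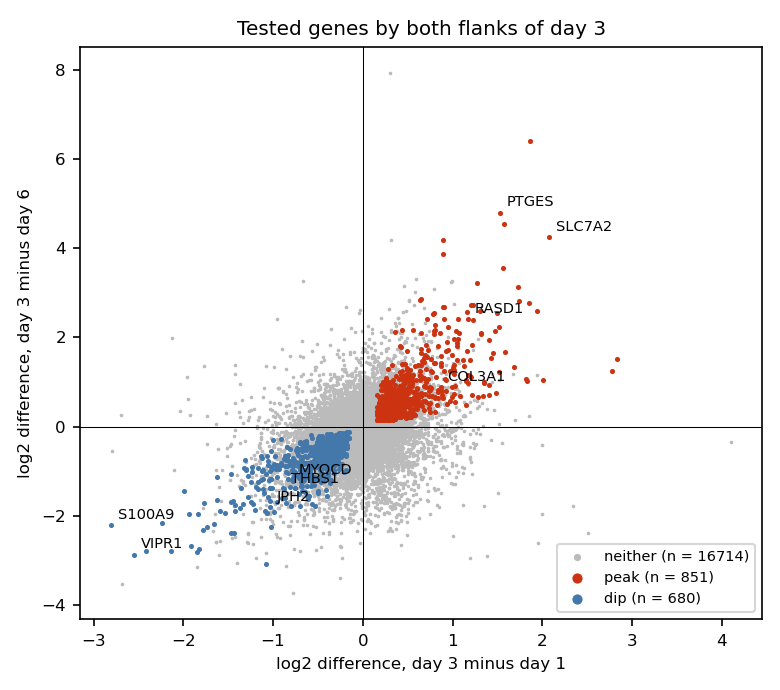
Each point is 1 of the tested genes, at its log2 difference of day 3 minus day 1 (horizontal) and of day 3 minus day 6 (vertical), with the 851 peaks in red, the 680 dips in blue and all others in grey. Peaks fill the upper right and dips the lower left, and the vertical spread is wider than the horizontal.

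Library totals ran from 28071813 to 33021509 counts, so that the limit a count of 0 allows, taken as 3 counts, was 0.0908 to 0.107 CPM and covers counting error only. Levels below are counts per 1e6 counts of a library (CPM), scaled with TMM factors, and a day 3 difference is the log2 level on day 3 minus the average of the log2 levels on days 1 and 6. ACTA2, TAGLN, CNN1, MYLK and LMOD1, markers of smooth muscle, were present in every library, MYH11 was at 0.7 to 1.91 CPM, and DES, the muscle intermediate filament desmin, had at most 2 counts. The defining markers CDH5 and CLDN5 (endothelium), PTPRC (leukocytes) and EPCAM and CDH1 (epithelium) had at most 8, 2, 1, 2 and 3 counts in any library. Some other markers of these cells were expressed, with PECAM1 at 30.1 to 31.5 CPM on day 1, 30.1 to 34 CPM on day 3 and 25.4 to 31 CPM on day 6. The endothelial receptors TIE1 (1.04, adjusted p = 0.000165) and KDR (0.71, adjusted p = 0.00503) were above the average of days 1 and 6 on day 3, and both were called against day 6 but not against day 1. The 9 endothelial markers summed to 48.3 to 49.3 CPM on day 1, 52.7 to 55.6 CPM on day 3 and 43.2 to 48.9 CPM on day 6, and the 9 epithelial markers to 43.5 to 50.1, 56.5 to 61.2 and 36.8 to 42.9 CPM; their part in the results was not tested. None of the 5 tested endothelial and 2 tested leukocyte markers peaked or dipped. Of the 5 tested epithelial markers KRT8 and KRT18 peaked, against 4.66% of all genes. KRT18 peaked in 3 of the 11 fits that each left out 1 library and not under library totals.

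Among protein-coding genes with a mean of at least 5 CPM and day 3 fully apart, the largest peaks were SLC7A2 and PTGES, while peaks at lower levels reached 4.14 on the log2 scale. SLC7A2 encodes a transporter of arginine, lysine and ornithine and lies on chromosome 8. Its level was 92.6, 62.2 and 98.7 CPM on day 1, then 334, 382, 356 and 357 CPM on day 3, and 22.4, 19.3, 9.85 and 23.7 CPM on day 6. Every day 3 library was above every other, and the mean on day 3 was 4.23 times that on day 1 and 19.1 times that on day 6 (day 3 difference 3.17, SE 0.209, adjusted p = 6.84e-06, edgeR). PTGES on chromosome 9 encodes microsomal prostaglandin E synthase, which turns the cyclooxygenase product into prostaglandin E2. It was at 12.1, 9.89 and 16.4 CPM on day 1, then at 35.6, 39.9, 33.1 and 39.3 CPM on day 3, and at 1.97, 0.844, 0.606 and 1.95 CPM on day 6. The groups did not overlap, and the day 3 difference was 3.16 (SE 0.201, adjusted p = 1.79e-06).

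PTGES was the sole peak among 20 tested prostaglandin enzymes, transporters and receptors, a list with 0 dips. These counts were near the shares of all genes, 4.66% peaks and 3.73% dips. The list had a median day 3 difference of -0.03, against -0.02 for all genes. PTGS2, the inducible cyclooxygenase, had 3075, 2432 and 4467 CPM on day 1, then 3426, 4050, 3631 and 3976 CPM on day 3, and 1582, 1660, 1680 and 2495 CPM on day 6. Its day 1 libraries spanned those of day 3, and it was not called between these days (log2 difference of day 3 minus day 1 0.18, adjusted p = 0.645). It was higher on day 3 than on day 6 by 1.02 (adjusted p = 0.00146).

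RASD1, a Ras-related G protein induced by dexamethasone, had 26.8, 25.6 and 28.6 CPM on day 1, then 68.1, 62.3, 53.8 and 59.6 CPM on day 3, and 13.1, 10.7, 9.46 and 12.5 CPM on day 6. The 3 days were fully separate (day 3 difference 1.79, SE 0.0755, adjusted p = 7.89e-11). GCH1, the first enzyme of tetrahydrobiopterin synthesis, and CHRDL1, a secreted antagonist of BMP4, peaked by 1.74 (SE 0.127) and 1.79 (SE 0.0987). SLC39A14, an importer of zinc and iron, peaked by 1.49 and averaged 523 ± 96 CPM on day 1, then 916 ± 36 CPM on day 3 and 203 ± 30.1 CPM on day 6 (SD, n = 3, 4 and 4). MMP10, the matrix metalloproteinase stromelysin 2, averaged 11.3 CPM on day 1, then 33.7 CPM on day 3 and 1.47 CPM on day 6. Its peak held in 8 of the 11 fits that each left out 1 library, and the highest adjusted p against day 1 was 0.0687, without day 1 replicate 1.

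By the same criteria the largest dips were in a neuropeptide receptor, in genes of the acute phase and S100 list and in a junctional protein. VIPR1 on chromosome 3 encodes a receptor for vasoactive intestinal peptide, which relaxes smooth muscle. Its level was 30.9, 58.7 and 31.5 CPM on day 1, then 6.95, 8.63, 6.22 and 5.86 CPM on day 3, and 43.1, 53.4, 66.5 and 37.8 CPM on day 6. The highest day 3 library was far below the lowest of the other days (day 3 difference -2.70, SE 0.278, adjusted p = 0.0001), while days 1 and 6 overlapped. Its antisense neighbour VIPR1-AS1 was at 0.111 to 0.211 CPM on day 3 and also dipped, though not without day 1 replicate 2 (adjusted p = 0.0757 against day 1), and without a stated strand setting the reads of the pair cannot be told apart.

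S100A9, a calcium-binding protein of inflammation, had 4.44, 12.6 and 9.92 CPM on day 1, then 1.6, 1.57, 0.914 and 1.03 CPM on day 3, and 4.04, 4.78, 10.6 and 4.29 CPM on day 6. Days 1 and 6 overlapped and all day 3 libraries were lower (day 3 difference -2.51, SE 0.459, adjusted p = 0.0026). SAA1 and SAA2, near-identical genes of serum amyloid A whose reads may be split between them, dipped by -1.50 and -1.64. Of 17 tested acute phase and S100 genes 3 dipped and 1 peaked, against 3.73% and 4.66% of all genes. The peak was the protease inhibitor SERPINA1 (day 3 difference 0.90), and the list median was -0.54. Without day 6 replicate 1 the dips of this list numbered 5, and without day 6 replicate 3 they numbered 6. The peak of SERPINA1 was lost without day 1 replicate 2 (adjusted p = 0.0664 against day 1). The 9 leukocyte markers summed to 8.23 to 11.6 CPM on day 1, 5.48 to 7.52 CPM on day 3 and 4.07 to 10.2 CPM on day 6, and PTPRC had at most 1 count; their part in these dips was not tested. In bulk libraries fewer cells of a kind and less RNA per cell cannot be told apart.

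JPH2 encodes junctophilin 2, which holds the sarcoplasmic reticulum close to the plasma membrane in muscle. It was at 20.4, 21.7 and 16.5 CPM on day 1, then at 8.65, 10.4, 9.14 and 10.02 CPM on day 3, and at 25.5, 37.1, 37.6 and 32.8 CPM on day 6. Day 3 was lowest in every library (day 3 difference -1.42, SE 0.115, adjusted p = 5.03e-07), and day 6 was above day 1. TRPM2, a calcium-permeable channel opened by ADP-ribose, dipped by -1.31 and KCNK2, the mechanosensitive potassium channel TREK-1, by -1.15. Long noncoding RNAs stood at either end, with ENSG00000304767 (1.66) and LINC03009 (1.27) as peaks and PURPL (-1.37) and LINC00996 (-1.13) as dips.

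**Figure D2:**
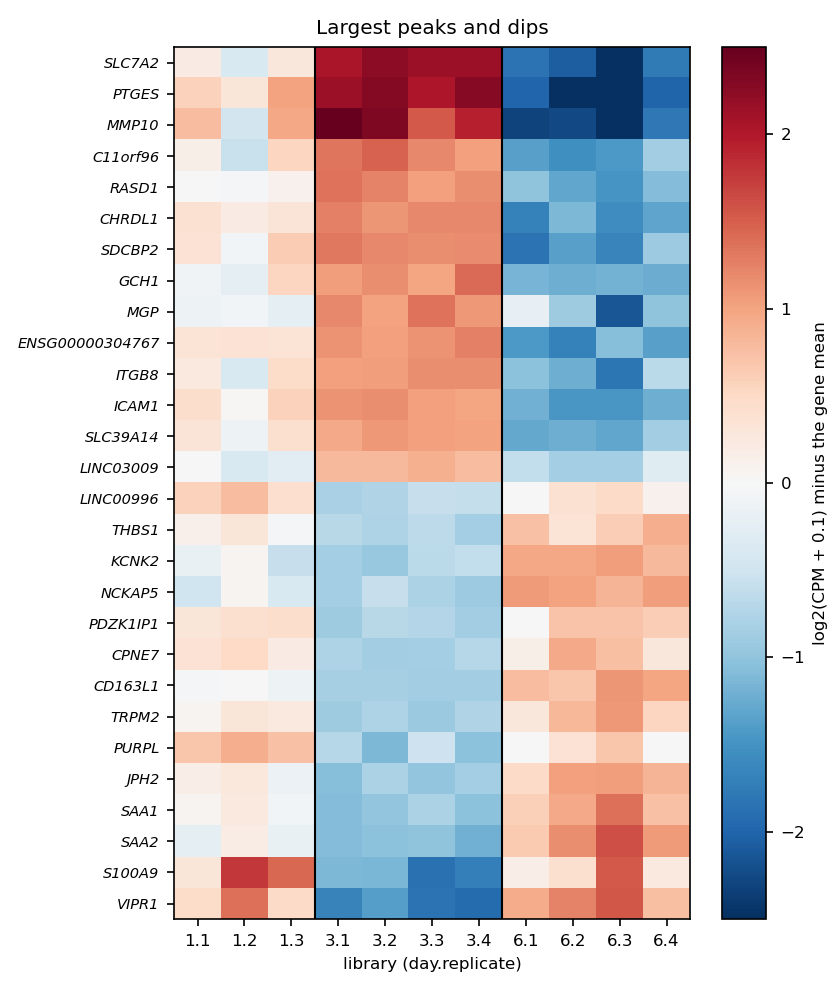
Rows are the 28 genes with the largest peaks and dips by the naming rule, columns are the libraries written as day.replicate, and colour is the log2 of CPM plus 0.1 minus the mean of the gene (limits -2.5 and 2.5). The 4 day 3 columns are red in the upper 14 rows and blue in the lower 14.

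**Figure D3:**
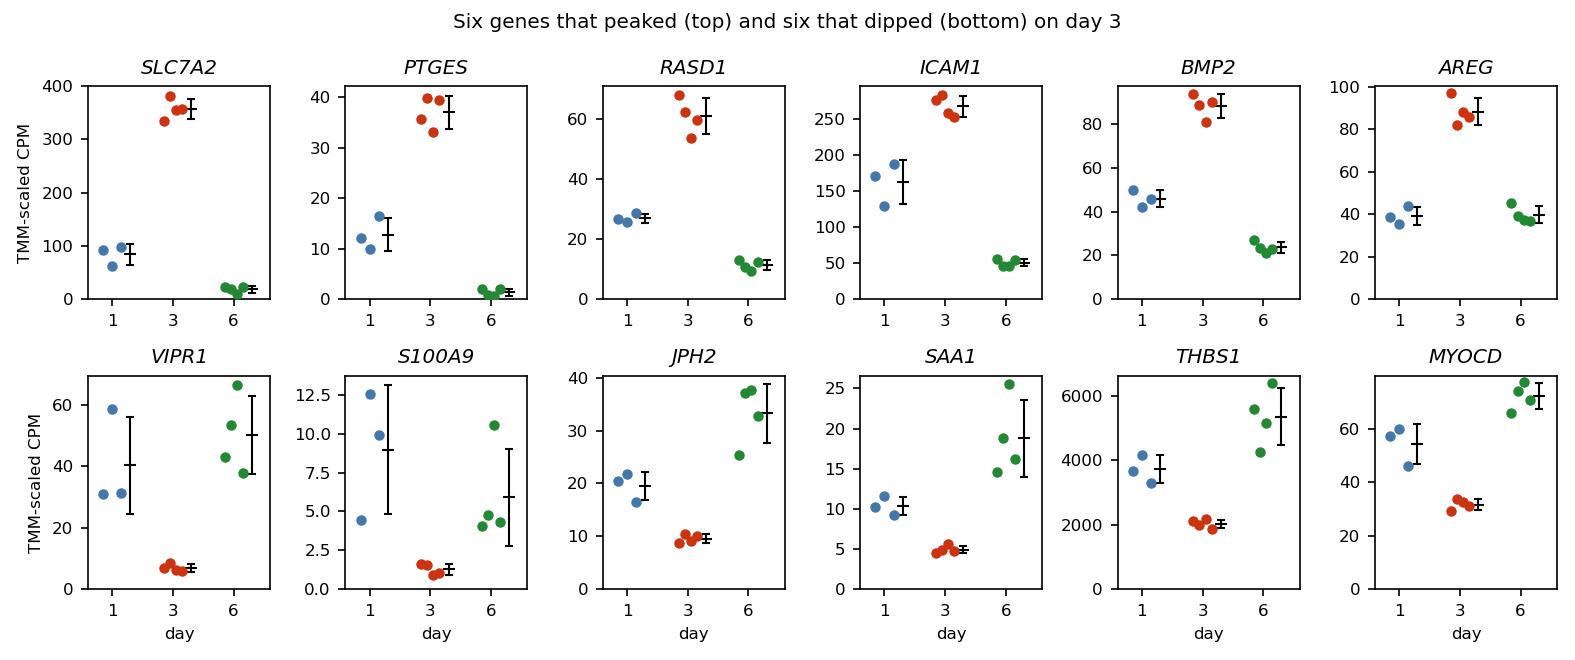
CPM (vertical) by day (horizontal) for 6 peaks in the upper row and 6 dips in the lower, with a point per library and the mean ± SD at its right (n = 3, 4 and 4). AREG shows near-equal levels on days 1 and 6, while SLC7A2 and PTGES are lower on day 6 than on day 1.

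Ribosomal protein genes were higher on day 3 almost throughout. Of 79 tested, 62 peaked and 0 dipped, against 4.66% and 3.73% of all genes, and their median day 3 difference was 0.39. Their share of all gene counts was 3.46%, 3.63% and 3.47% on day 1, 4.07%, 4.28%, 4.1% and 4.06% on day 3, and 3.09%, 3.45%, 3.15% and 3.04% on day 6. All day 3 libraries were above all others, and the share on day 3 exceeded the average of the other days by 0.775 percentage points (exact permutation test over 11550 assignments, two-sided p = 0.00303, Benjamini-Hochberg adjusted 0.00909 over 3 shares). The 50 most abundant genes together also took more of the counts on day 3, by 2.45 percentage points (adjusted p = 0.0404, exact permutation test), with means of 20.8% on day 1, 22% on day 3 and 18.2% on day 6; this call was lost in 6 of the fits without 1 library, at an adjusted p of up to 0.0965.

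RPS2, a protein of the small subunit, had 663, 622 and 654 CPM on day 1, then 830, 877, 832 and 802 CPM on day 3, and 484, 505, 433 and 498 CPM on day 6. RPS16 had 463, 443 and 486 CPM on day 1, then 593, 658, 585 and 587 CPM on day 3, and 356, 399, 346 and 357 CPM on day 6. Both were highest in all 4 day 3 libraries and lowest on day 6, with day 3 differences of 0.59 (SE 0.052) and 0.56 (SE 0.053). The 17 that were not peaks included RPS28 (0.27) and RPL26 (0.35), which were higher than the average but not called against day 1. RPS10 (-0.03) and RPL36A (-0.11) were the members with values below 0, at 1.04 and 0.838 CPM on day 3, where the counting of reads shared with pseudogenes or overlapping genes is not recorded and its part was not tested. Under library totals 44 of the 79 peaked with a median of 0.27, and without day 1 replicate 1 the count was 39.

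The group was also compared at its transcription starts, because these carry the pyrimidine run. RefSeq starts (GRCh38.p14) were found for 63 of the 79 genes. A C followed by at least 4 pyrimidines lay within 3 bases before to 8 bases after the start in 48 of them (76.2%), against 1697 of 11841 tested genes with a start (14.3%), 82 of 604 other peaks (13.6%) and 65 of 511 dips (12.7%). This motif was chosen after the values were seen, and a match is a description of the letters. The 30 bases from 10 before the start are shown for 5 peaks of the group, with the run in capitals, from chr19:39435930-39435959 (minus strand), chr19:49487598-49487627 (plus), chr11:75399508-75399537 (plus), chr6:132814559-132814588 (plus) and chr10:78033853-78033882 (plus) in the order printed.
RPS16: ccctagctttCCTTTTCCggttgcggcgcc
RPL13A: aaacctcCTCCTTTTCCaagcggctgccga
RPS3: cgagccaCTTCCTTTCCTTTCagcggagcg
RPS12: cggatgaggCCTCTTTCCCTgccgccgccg
RPS24: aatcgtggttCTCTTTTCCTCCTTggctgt

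Their day 3 differences were 0.56, 0.51, 0.38, 0.41 and 0.42 in the same order. Other parts of the translation machinery were counted beside them. Of 31 tested translation factors 16 were higher than the average on day 3, against 17.7% of all genes. In this list 2 were higher on day 3 than on day 1 and 20 than on day 6, against 6.88% and 23.4% of all genes. EEF1B2, a subunit of elongation factor 1, and EIF1, which selects start codons, were the 2 peaks, against 4.66% of all genes. EIF1 held in 5 of the 11 fits without 1 library (adjusted p up to 0.197 against day 1, without day 1 replicate 2) and not under library totals, and EEF1B2 in 10 (up to 0.0571, without day 1 replicate 1). None of 28 ribosome biogenesis genes peaked or dipped, with 6 called higher and 6 lower than the average, against 17.7% and 17.5% of all genes. Of 20 cytosolic aminoacyl-tRNA synthetases, which charge transfer RNAs, 3 dipped and 0 peaked, against 3.73% and 4.66% of all genes. The dips included IARS1 (-0.40) and FARSB (-0.59). The number of dips changed with the libraries used, with 1 dip without day 1 replicates 1 or 3 or day 3 replicates 1, 3 or 4 and 0 without day 1 replicate 2 or day 3 replicate 2. Counts on the mitochondrial genome, with 0 peaks and 0 dips among 13 genes, took 3.24% ± 0.244 on day 1, 2.49% ± 0.202 on day 3 and 2.88% ± 0.661 on day 6 (SD; exact permutation adjusted p = 0.0697).

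**Figure D4:**
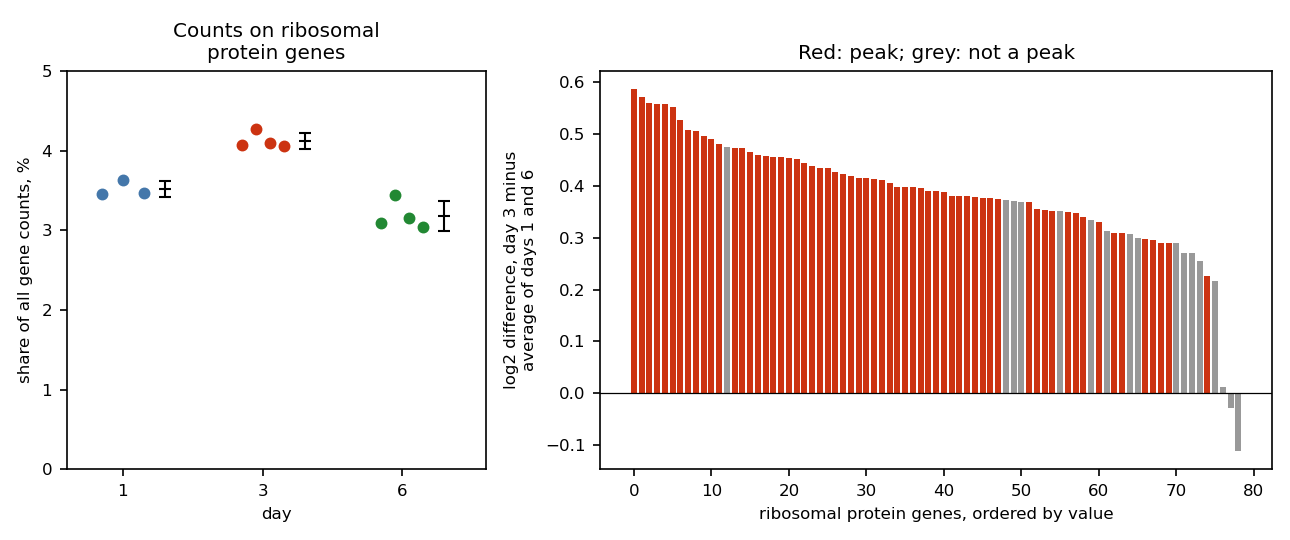
Left, the share of gene counts on 79 ribosomal protein genes (%, vertical) by day, with a point per library and the mean ± SD; right, the day 3 difference (log2, vertical) of each gene in descending order, red for the 62 peaks and grey for the other 17. All 4 day 3 libraries are at 4.06% or more and all others at 3.63% or less.

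Amino acid transporters peaked in 9 of 21 cases and dipped in 2, against 4.66% and 3.73% of all genes, with a median day 3 difference of 0.38. SLC3A2 encodes the heavy chain that carries several transporters to the cell surface, and it had 156, 139 and 158 CPM on day 1, then 202, 210, 188 and 185 CPM on day 3, and 82.7, 94.7, 79.2 and 101 CPM on day 6. The days were separate (day 3 difference 0.75, SE 0.0628, adjusted p = 1.21e-07). Its light chain partner SLC7A11, which exchanges cystine for glutamate, peaked by 1.36 (SE 0.0717), and SLC7A5, which with SLC3A2 imports large neutral amino acids, by 1.46 (SE 0.139). SLC7A8, another light chain partner for neutral amino acids, went the other way, with 4.65, 4.78 and 3.94 CPM on day 1, then 2.35, 3.49, 2.81 and 2.73 CPM on day 3, and 7.28, 4.44, 3.94 and 4.63 CPM on day 6. All libraries of the outer days were above day 3 (-0.75, SE 0.163, adjusted p = 0.0017).

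SLC43A2, an importer of large neutral amino acids, had 7.13, 7.17 and 8.8 CPM on day 1, then 25.6, 33.3, 27.4 and 23.4 CPM on day 3, and 12.5, 13.7, 9.64 and 18.4 CPM on day 6. It was the transporter with the widest gap between days 3 and 1 after SLC7A2 (log2 difference 1.83, adjusted p = 0.00026). SLC1A4, for alanine, serine and cysteine, peaked by 0.70, and the glutamate transporter SLC1A3 dipped by -0.69. SLC7A5 was no longer called against day 1 without day 1 replicate 2 (adjusted p = 0.0733), and the dip of SLC7A8 held in 6 of the 11 fits without 1 library (up to 0.114, without day 1 replicate 2).

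Stress genes tied to amino acid supply and protein folding were counted next. ATF4, the transcription factor that induces many transporters when amino acids are short, averaged 515 ± 61.8 CPM on day 1, then 624 ± 26.1 CPM on day 3 and 315 ± 22.1 CPM on day 6 (day 3 difference 0.63). Its peak held in 9 of 11 fits and reached an adjusted p of 0.171 against day 1 without day 1 replicate 2. Of 23 tested genes in the list of ATF4 and its targets 10 were higher than the average on day 3, against 17.7% of all genes. In this list 2 were higher on day 3 than on day 1 and 15 than on day 6, against 6.88% and 23.4% of all genes. The 2 peaks were ATF4 itself and SHMT2, the mitochondrial serine hydroxymethyltransferase (0.55), and STC2 was the 1 dip. By comparison 4.66% of all genes peaked and 3.73% dipped. Of 24 genes of endoplasmic reticulum folding and the unfolded protein response 21 were above the average, against 17.7% of all genes. In this list 5 were higher on day 3 than on day 1 and 22 than on day 6, against 6.88% and 23.4% of all genes. The median log2 differences of this list were 0.07 and 0.52. The 4 peaks included the chaperone DNAJC3 (0.64) and the transcription factor XBP1 (0.56), while CREB3L1, a transcription factor of collagen-secreting cells, dipped by -0.61. The peaks of that list numbered 2 under library totals or without day 1 replicate 1, day 1 replicate 2 or day 3 replicate 4, and 7 without day 6 replicate 3.

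Metallothioneins are small proteins that bind zinc and copper. Their list, which also holds the regulator MTF1 and a zinc exporter, had 4 peaks among 7 tested genes and 0 dips, against 4.66% and 3.73% of all genes. MT2A, the most abundant member at a mean of 1297 CPM, and MT1G were not called against day 1 (adjusted p = 0.0585 and 0.0643, edgeR). MTF1 was not called against the average (0.09, adjusted p = 0.191). MT1X had 7.82, 8.17 and 8.45 CPM on day 1, then 11.2, 13.2, 11.04 and 12.4 CPM on day 3, and 4.8, 7.66, 5.7 and 5.94 CPM on day 6. The days 1 and 3 did not overlap, nor did days 3 and 6 (day 3 difference 0.77, SE 0.0988, adjusted p = 8.45e-06). The zinc exporter SLC30A1 peaked by 0.40, and MT1E and MT1F by 0.66 and 1.43. MT1F was at low levels, with means of 0.68 CPM on day 1, 1.53 CPM on day 3 and 0.469 CPM on day 6. MT1F held in 5 of the 11 fits (adjusted p up to 0.124 against day 1, without day 1 replicate 2) and MT1E in 7 (up to 0.0739, without day 1 replicate 1). The list had 2 peaks without any 1 of the day 1 libraries or without day 3 replicate 2, and reads can be shared among MT1 paralogs. HMOX1, haem oxygenase 1, was the sole peak of 14 NRF2 targets (0.84), against 4.66% of all genes. In this list 6 members were lower on day 3 than on day 1 and 11 were higher on day 3 than on day 6, against 5.9% and 23.4% of all genes. Its median log2 difference of day 6 minus day 1 was -0.74.

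NF-kB genes peaked in 8 of 24 cases with 0 dips, against 4.66% and 3.73% of all genes. The list median was 0.50, and 17 were above the average of days 1 and 6, against 17.7% of all genes. In this list 9 were higher on day 3 than on day 1 and 19 than on day 6, against 6.88% and 23.4% of all genes. The peaks were the subunits NFKB2 (0.66), REL (0.48) and RELB (0.54), the feedback gene TNIP1 (0.45), and TRAF1 (1.33), TNFAIP2 (1.11), IL1A (1.105) and ICAM1 (1.56). ICAM1, the adhesion molecule that leukocytes bind, had 171, 129 and 188 CPM on day 1, then 276, 284, 258.4 and 252 CPM on day 3, and 55.2, 45.9, 46.3 and 54.2 CPM on day 6. The days were separate, with day 6 the lowest (day 3 difference SE 0.0868, adjusted p = 4.76e-08). TRAF1, an adaptor of TNF receptors, had 16.9, 13.5 and 22.1 CPM on day 1, then 29.8, 36.2, 28.7 and 31.0 CPM on day 3, and 7.69, 9.35, 8.03 and 10.6 CPM on day 6, again with the days separate. TNIP1 held in 7 of the 11 fits without 1 library (adjusted p up to 0.127 against day 1, without day 1 replicate 2), while NFKB2 was lost without day 1 replicate 2 (0.0631) and IL1A without day 1 replicate 1 (0.052).

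Of 13 tested genes of the interleukin 6 family 4 peaked and 0 dipped, against 4.66% and 3.73% of all genes. Above the average were 9, against 17.7% of all genes. In this list 5 were higher on day 3 than on day 1 and 8 than on day 6, against 6.88% and 23.4% of all genes. CLCF1, a cytokine of this family, had 56.7, 55.3 and 57.7 CPM on day 1, then 71.8, 77.5, 69.9 and 72.9 CPM on day 3, and 49.7, 54.6, 43.7 and 59.3 CPM on day 6. All day 3 libraries were above all others, with a day 3 difference of 0.43 (SE 0.0626). STAT3, the transcription factor below the shared receptor gp130, peaked by 0.30, though not under library totals, and IL11 by 0.41 in 7 of the 11 fits (adjusted p up to 0.133 against day 1, without day 1 replicate 2). LIF, another member, was higher on day 3 than on day 1 by 1.38 (adjusted p = 0.00193) but was not called against day 6 (0.39, adjusted p = 0.097), so it was not a peak.

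Among 17 chemokines and colony-stimulating factors 3 peaked, CXCL8 (0.83), CCL8 (1.34) and CCL11 (1.18), and CSF1 dipped. The shares of all genes were 4.66% peaks and 3.73% dips. CSF1, the growth factor of macrophages, had 78.8, 89.4 and 81.1 CPM on day 1, then 53.3, 54.1, 48.2 and 49.7 CPM on day 3, and 66.0, 58.5, 66.7 and 68.9 CPM on day 6. The lowest library of the outer days was above the highest of day 3 (day 3 difference -0.52, SE 0.055, adjusted p = 1e-06). The list had 1 peak without day 1 replicate 1 or without day 1 replicate 2. CXCL8 held in 5 of the 11 fits, with an adjusted p against day 1 of up to 0.137 without day 1 replicate 2, and CCL8 in 9 (up to 0.0886, without the same library).

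Of 28 interferon and MHC class I genes 9 peaked and 0 dipped, against 4.66% and 3.73% of all genes. Peaks included the antigen presentation genes HLA-B (0.35), HLA-E (0.58), HLA-F (0.46), TAP1, a peptide transporter (0.48), and PSMB8, an immunoproteasome subunit (0.20). The transcription factors IRF1 (0.68) and IRF7 (0.31) and the antiviral exonuclease ISG20 (0.54) also peaked. The antiviral genes MX2 (-0.59), IFIT1 (-0.53), OAS2 (-0.44) and OAS3 (-0.36) were below the average of days 1 and 6, while ISG15 (0.03), IFIT3 (0.01), IFI6 (0.02) and OAS1 (0.30) were not called. IRF1 had 35.3, 35.2 and 37.7 CPM on day 1, then 54.0, 56.6, 47.0 and 46.4 CPM on day 3, and 26.6, 28.1, 24.5 and 33.2 CPM on day 6. Its day 3 libraries were above all others (SE 0.0731, adjusted p = 2.2e-06). The list had 3 peaks under library totals, where HLA-B and HLA-E were no longer called, and 5 without day 3 replicate 2. HLA-B held in 3 of the 11 fits without 1 library and HLA-E in 5, with adjusted p values against day 1 of up to 0.134 and 0.229 without day 1 replicate 2. HLA reads can be shared among paralogs.

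The ligands BMP2 and BMP6 peaked on day 3 and the ligand BMP4 did not, and secreted BMP antagonists also differed in direction. BMP2, a bone morphogenetic protein, had 49.96, 41.9 and 45.9 CPM on day 1, then 93.6, 88.8, 80.9 and 90.0 CPM on day 3, and 27.1, 23.6, 21.1 and 23.1 CPM on day 6. The 3 days were fully separate (day 3 difference 1.42, SE 0.0618, adjusted p = 5.69e-11). BMP6 peaked as well, by 0.96 (SE 0.115), as did SMAD7, an inhibitor of the pathway (0.28), and TGFB3 (0.64). BMP4 was not called against the average (-0.14, adjusted p = 0.0992) and was lower on day 3 than on day 1 by -0.38 (adjusted p = 0.00323). GREM1, the secreted BMP antagonist gremlin, dipped, with 1875, 2023 and 1685 CPM on day 1, then 1166, 1164, 1201 and 1264 CPM on day 3, and 1580, 1552, 1340 and 1584 CPM on day 6. All day 3 libraries were below the others (-0.49, SE 0.0643, adjusted p = 1.21e-05). NOG, the antagonist noggin, dipped by -1.104 in 5 of the 11 fits, with an adjusted p of up to 0.0874 against day 1 without day 1 replicate 2, while the antagonist CHRDL1 peaked. In all, 6 of 29 TGF-beta, activin and BMP genes peaked and 2 dipped, against 4.66% and 3.73% of all genes.

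Of 15 tested genes of the insulin-like growth factor (IGF) axis 3 peaked and 1 dipped, against 4.66% and 3.73% of all genes. The 3 peaks were IGF-binding proteins, and the 1 dip was a protease that cuts such proteins. IGFBP2 was at 0.186, 0.0996 and 0.191 CPM on day 1, then at 1.11, 1.27, 1.13 and 0.994 CPM on day 3, and at 0.636, 0.406, 0.212 and 0.637 CPM on day 6, and its day 1 levels were close to the limit that a count of 0 allows. IGFBP3 had 24.5, 20.8 and 24.0 CPM on day 1, then 42.2, 40.9, 32.3 and 34.7 CPM on day 3, and 15.99, 22.5, 15.3 and 20.9 CPM on day 6. IGFBP7 peaked by 0.50, IGFBP3 by 0.86 and IGFBP2 by 2.02. IGFBP5 (0.44) and IGFBP6 (0.75) were above the average but not called against day 1. IGFBP4 was not called against the average (-0.16, adjusted p = 0.0559).

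PAPPA, a protease that cleaves IGF-binding proteins, dipped with 231, 232 and 225 CPM on day 1, then 116, 148, 139 and 110 CPM on day 3, and 191, 187, 180 and 264 CPM on day 6. STC2, stanniocalcin 2, which inhibits that protease, dipped by -0.69 (SE 0.0672), and both were lowest in all 4 day 3 libraries. Its relative STC1 was above the average (0.57, adjusted p = 0.000636) and higher on day 3 than on day 6 by 1.11 (adjusted p = 1.74e-06, edgeR). STC1 was not called between days 3 and 1 (0.04, adjusted p = 0.897), so it was not a peak. PAPPA2, the other protease of the list, was not called against the average (0.24, adjusted p = 0.447).

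AREG, amphiregulin, a ligand of the EGF receptor, peaked from nearly equal levels on the outer days. It had 38.6, 35.4 and 43.7 CPM on day 1, then 97.2, 81.8, 88.1 and 85.9 CPM on day 3, and 45.5, 39.1, 37.1 and 36.9 CPM on day 6. Days 1 and 6 overlapped (log2 difference of day 6 minus day 1 0.02, adjusted p = 0.9), and the day 3 difference was 1.16 (SE 0.0656, adjusted p = 1.51e-09). EGF, another ligand, dipped by -0.81 in 6 of the 11 fits, with an adjusted p of up to 0.0793 against day 1 without day 3 replicate 1. DUSP1, a phosphatase that switches off MAP kinases, had 88.5, 82.8 and 93.9 CPM on day 1, then 129, 126, 126 and 122 CPM on day 3, and 62.8, 67.4, 51.2 and 70.8 CPM on day 6, so that day 3 was highest (0.75, SE 0.0658).

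The promoters of genes with such a shape were read for 6 short motifs, because AREG, DUSP1 and other peaks are known targets of cyclic AMP and AP-1 signalling. Of 787 peaks and 584 dips with day 3 fully apart, 602 and 448 had a RefSeq promoter of 300 bases, from 250 before to 50 after the start. On either strand, the cyclic AMP response element TGACGTCA was found in 4.65% of the peaks, 2.23% of the dips and 3.19% of 11841 promoters of tested genes. The AP-1 site TGANTCA was in 6.98% of peaks, 6.03% of dips and 5.06% of all, and the NF-kB site (GGG, then any 2 bases, then TTTCC) in 2.99%, 1.79% and 2.19%. The E-box CACGTG was in 8.8%, 9.6% and 9.73%, the STAT site TTCNNNGAA in 7.14%, 5.8% and 6.71%, and the C/EBP-ATF site TGATGNAAT in 0.831%, 0% and 0.507%. No motif overlapped with another in the 5 promoters shown, and these shares are descriptions with no test.

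The 150 bases before the start are shown for 5 peaks with a match, in capitals, from RefSeq GRCh38.p14. AREG (chr4:74444986-74445135, plus strand) holds TGACGTCA from 65 bases upstream, and DUSP1 (chr5:172771196-172771345, minus) holds it from 125 bases upstream and an E-box from 108. MMP10 (chr11:102780629-102780778, minus) and GJA1 (chr6:121435496-121435645, plus) hold an AP-1 site from 67 and 48 bases upstream. TAP1 (chr6:32853705-32853854, minus) holds an NF-kB site from 72 bases upstream.
AREG: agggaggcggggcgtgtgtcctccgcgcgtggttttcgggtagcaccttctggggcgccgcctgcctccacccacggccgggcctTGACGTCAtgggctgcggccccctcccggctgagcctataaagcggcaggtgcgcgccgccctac
DUSP1: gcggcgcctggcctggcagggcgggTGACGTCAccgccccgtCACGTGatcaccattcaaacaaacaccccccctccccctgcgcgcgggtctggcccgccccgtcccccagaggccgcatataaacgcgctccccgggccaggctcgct
MMP10: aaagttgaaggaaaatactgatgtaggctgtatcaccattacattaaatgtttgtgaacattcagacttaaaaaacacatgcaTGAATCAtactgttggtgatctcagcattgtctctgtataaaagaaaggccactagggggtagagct
GJA1: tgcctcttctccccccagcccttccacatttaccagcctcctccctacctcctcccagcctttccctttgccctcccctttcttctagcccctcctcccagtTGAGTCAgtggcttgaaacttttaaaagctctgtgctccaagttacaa
TAP1: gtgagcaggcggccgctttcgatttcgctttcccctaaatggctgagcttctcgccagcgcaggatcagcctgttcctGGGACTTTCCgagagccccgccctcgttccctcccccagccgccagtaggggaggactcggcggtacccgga

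Of 37 collagens and matrix glycoproteins 5 peaked and 2 dipped, with a median of -0.03. Against 4.66% peaks and 3.73% dips among all genes, the dips of this list were near the share. COL3A1, the chain of collagen III, had 2250, 1818 and 1803 CPM on day 1, then 3547, 3755, 3839 and 3190 CPM on day 3, and 2258, 1906, 1659 and 1928 CPM on day 6. The outer days overlapped and all day 3 libraries were higher (day 3 difference 0.88, SE 0.082, adjusted p = 3.44e-07). The small proteoglycan biglycan (BGN) peaked by 0.89 (SE 0.0701), and COL15A1, COL18A1 and COL5A2 by 2.02, 0.89 and 0.42. COL1A1, the main chain of collagen I, was not called against the average (-0.28, adjusted p = 0.124) or against day 1 (0.23, adjusted p = 0.416) and was lower on day 3 than on day 6 by -0.80 (adjusted p = 0.000788). Without day 3 replicate 2 or 3 the list had 3 peaks. COL5A2 was not a peak under library totals and held in 8 of the 11 fits (adjusted p up to 0.0651 against day 6, without day 3 replicate 3), and COL18A1 held in 2 of the 11 fits, with an adjusted p of up to 0.145 against day 1 without day 1 replicate 2.

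The matricellular genes THBS1 and CCN1 dipped. THBS1, thrombospondin 1, had 3675, 4156 and 3290 CPM on day 1, then 2095, 1978, 2159 and 1864 CPM on day 3, and 5592, 4264, 5145 and 6384 CPM on day 6. CCN1, a secreted target of YAP and serum response factor, had 649, 636 and 590 CPM on day 1, then 328, 382, 329 and 328 CPM on day 3, and 566, 594, 618 and 746 CPM on day 6. Every day 3 library of both genes was below every other, with day 3 differences of -1.14 (SE 0.096) and -0.88 (SE 0.0714). Among 30 matrix proteases and inhibitors 16 were above the average, against 17.7% of all genes. In this list 3 were higher on day 3 than on day 1 and 16 than on day 6, against 6.88% and 23.4% of all genes. MMP10 and the inhibitor TIMP1 (0.30) peaked, and the inhibitor TIMP3 dipped (-0.44, SE 0.0592), against 4.66% and 3.73% of all genes. The peak of TIMP1 was lost under library totals.

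Contractile genes were low on day 3 relative to day 6, and 4 dipped. Of 23 tested, 18 were below the average of days 1 and 6, 21 were below day 6 and 4 were below day 1, and the list median was -0.47. Among all genes 17.5% were below the average, 26.4% below day 6 and 5.9% below day 1, and 3.73% dipped. MYOCD, myocardin, had 57.1, 59.95 and 45.9 CPM on day 1, then 29.1, 33.8, 32.5 and 30.9 CPM on day 3, and 66.0, 74.2, 77.4 and 70.7 CPM on day 6. The day 3 libraries were lowest (day 3 difference -0.99, SE 0.0703, adjusted p = 2.42e-08). CALD1, caldesmon, dipped by -0.55, MYL9, the regulatory myosin light chain, by -0.61, and ACTN1, an actin crosslinker, by -0.33. ACTA2, smooth muscle actin, was not a dip, with 48.7, 45.8 and 30.4 CPM on day 1, then 62.4, 60.8, 60.04 and 70.2 CPM on day 3, and 183, 212, 213 and 206 CPM on day 6. It was higher on day 3 than on day 1 by 0.61 (adjusted p = 0.0142) and lower than on day 6 by -1.68 (adjusted p = 6.01e-07). The dips of the list numbered 2 without day 1 replicate 1, day 1 replicate 2 or day 3 replicate 3. MYL9 was not a dip in any of these fits (adjusted p = 0.0895 against day 1 without day 1 replicate 2). ACTN1 was not a dip without any 1 of the day 1 or day 3 libraries, nor with either replicate block. Its adjusted p against day 1 was 0.214 without day 1 replicate 1.

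Genes of electrical coupling and excitability were counted next, against 4.66% peaks and 3.73% dips among all genes. GJA1, connexin 43, had 314, 308 and 292 CPM on day 1, then 504, 463, 529 and 537 CPM on day 3, and 472, 388, 283 and 388 CPM on day 6. The lowest day 3 library was below the highest of day 6, and the gene peaked by 0.57 (SE 0.103, adjusted p = 0.000968), though not under library totals. PANX1, a channel that releases ATP, peaked by 0.59, so that 2 of 5 connexin and pannexin genes peaked and the connexins GJA5, GJC1 and GJD3 did not, though PANX1 was lost without day 1 replicate 2 (adjusted p = 0.0583 against day 1). Of 20 potassium channel genes 2 dipped, KCNK2 and KCNS3 (-0.63), and 0 peaked. Of 26 calcium handling genes 2 peaked, the plasma membrane pump ATP2B1 (0.53) and ITPR1 (0.54). ATP2B1 was not a peak without day 1 replicates 1 or 2 or day 3 replicates 3 or 4, each left out alone. ITPR1 was not a peak without day 1 replicates 1 or 2 or any 1 of the day 3 libraries, nor under library totals. In the same list 3 dipped, JPH2, the pump ATP2B4 (-0.29) and the channel TRPC1 (-0.25). That number came to 1 without any 1 of the day 1 libraries or day 3 replicates 1 or 4. OXTR, the oxytocin receptor, had 7.01, 5.18 and 4.74 CPM on day 1, then 5.52, 5.14, 6.33 and 6.15 CPM on day 3, and 6.77, 10.8, 9.52 and 8.32 CPM on day 6. It was not called against the average (-0.29, adjusted p = 0.0942) or day 1 (0.03, adjusted p = 0.918) and was lower on day 3 than on day 6 (-0.61, adjusted p = 0.00158).

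Targets of p53, which respond to DNA damage, dipped in 6 of 21 cases and peaked in 1, the death receptor TNFRSF10B (0.30). For all genes the shares were 3.73% dips and 4.66% peaks, so that the 1 peak was near the share. PHLDA3, an inhibitor of AKT signalling, had 41.2, 41.9 and 39.7 CPM on day 1, then 28.5, 31.2, 26.8 and 28.7 CPM on day 3, and 36.9, 37.7, 39.2 and 33.3 CPM on day 6. All day 3 libraries were lower (day 3 difference -0.43, SE 0.0562, adjusted p = 1.05e-05). SPATA18, a mitochondrial quality control gene, dipped by -1.14, ZMAT3, an RNA-binding protein, by -0.37, RRM2B, a subunit of ribonucleotide reductase, by -0.26, DDB2, a DNA repair protein, by -0.58, and BAX, which permeabilises mitochondria, by -0.21. CDKN1A and MDM2 were not dips (-0.13 and -0.14). PURPL, a long noncoding RNA induced by p53, had 11.2, 13.2 and 11.6 CPM on day 1, then 4.18, 3.15, 4.82 and 3.35 CPM on day 3, and 6.96, 8.88, 11.2 and 6.84 CPM on day 6. BAX and DDB2 each held in 7 of the 11 fits, and their adjusted p values against day 1 reached 0.0618 without day 1 replicate 1 and 0.126 without day 1 replicate 2.

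Proliferation genes had neither peaks nor dips, against 4.66% and 3.73% of all genes. All 29 tested mitosis genes were lower on day 3 than on day 6 and 0 were called against day 1, so that 26 were below the average of both. MKI67, the proliferation marker, had 6.58, 5.88 and 3.02 CPM on day 1, then 6.98, 7.37, 6.4 and 8.4 CPM on day 3, and 28.2, 40.6, 22.9 and 35.3 CPM on day 6. Of 28 DNA replication genes 27 were lower on day 3 than on day 6 and 2 were higher than on day 1. The shares of all genes were 26.4% lower than on day 6, 17.5% below the average and 6.88% higher than on day 1. The 2 replication genes above day 1 were thus near the share of all genes. Genes of cholesterol and fatty acid synthesis were below the average in 20 of 23 cases, against 17.5% of all genes. In this list 2 were lower on day 3 than on day 1 and 19 than on day 6, against 5.9% and 26.4% of all genes. The 1 dip was SCD, the stearoyl-CoA desaturase of fatty acid synthesis (-0.51).

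The other groups had few peaks and dips each, to be read against 4.66% peaks and 3.73% dips among all genes. Clock genes peaked in 3 of 16 cases, with the repressor CRY1 at 18.5, 15.9 and 16.8 CPM on day 1, then at 32.5, 33.0, 32.9 and 32.8 CPM on day 3, and at 21.97, 24.8, 24.8 and 20.2 CPM on day 6. The hour of sampling is not in the labels, and its part in the clock genes was not tested. NFIL3, a repressor of clock output, peaked by 0.51, and the repressor BHLHE41 dipped by -0.65 in 6 of the 11 fits (adjusted p up to 0.124 against day 1, without day 1 replicate 2). The peak of PER2, the third, held in 4 of them and not under library totals. Of 28 Wnt and Notch genes 4 dipped, LFNG, which modifies Notch (-0.77), the Notch ligand JAG1 (-0.82), the Wnt antagonist DKK1 (-0.58) and the receptor FZD2 (-0.32), and the receptors FZD7 (0.51) and FZD8 (0.44) peaked; 2 dips were left without day 1 replicate 2 or without day 3 replicate 2. DKK1 held in 4 of the 11 fits, JAG1 in 8 and FZD8 in 9, with adjusted p values against day 1 of up to 0.162 without day 1 replicate 1, 0.0905 without day 1 replicate 2 and 0.067 without day 1 replicate 1. HSPB1, a small heat shock protein, was the sole dip of 22 heat shock genes (-0.45), and EPAS1, the hypoxia factor HIF-2 alpha, dipped by -0.48. In the same list of hypoxia and glycolysis genes PDK1, a kinase that inhibits pyruvate dehydrogenase, peaked by 0.58 in 8 of the 11 fits (adjusted p up to 0.105 against day 1, without day 1 replicate 2), and the glycolytic enzyme PGAM1 by 0.26, though not under library totals.

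**Figure D5:**
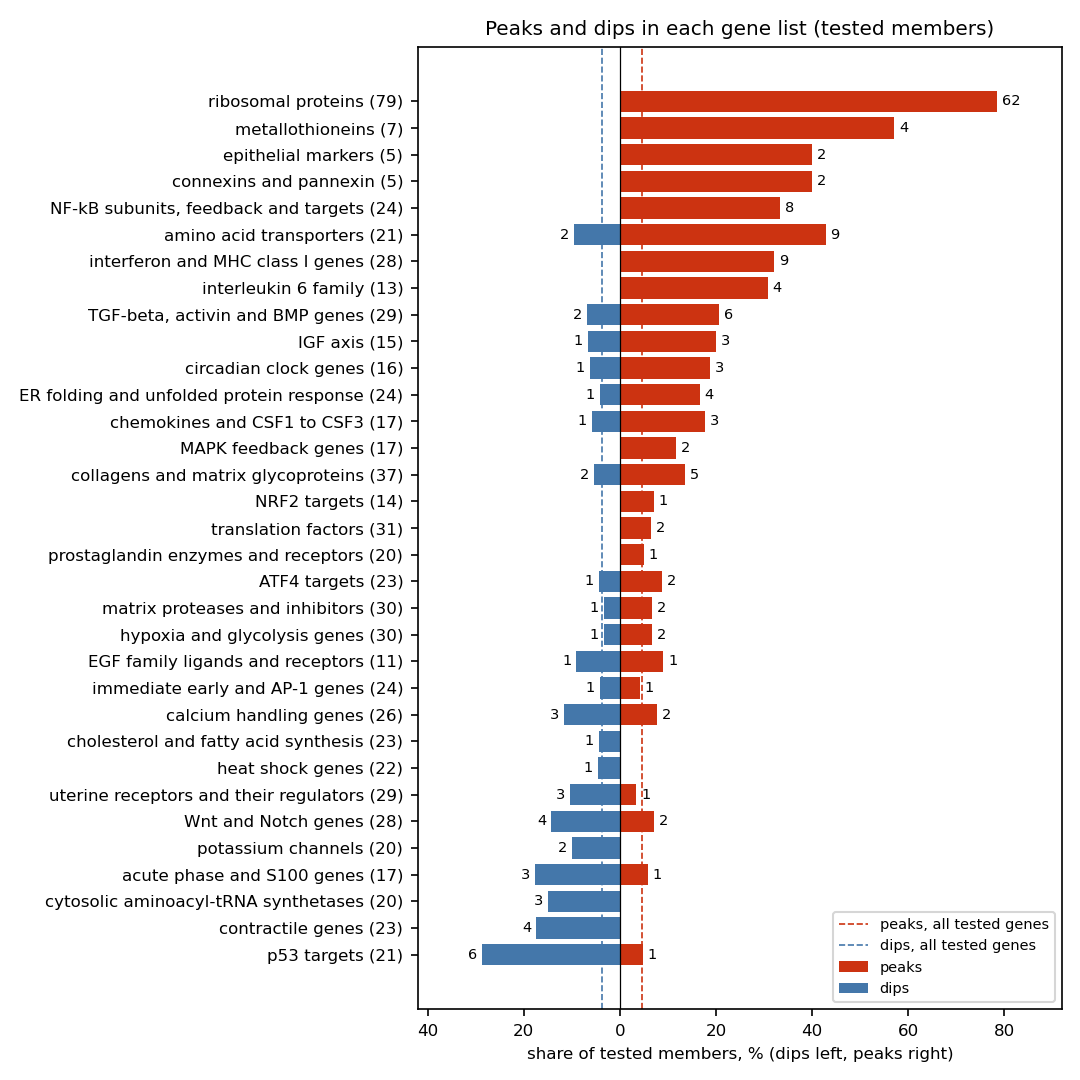
Bars give the share of tested members (%, horizontal) that peaked (right, red) or dipped (left, blue) in each list with at least 5 tested genes and at least 1 peak or dip, with the number of genes at the bar end and the number tested in brackets. Dashed lines mark the shares among all tested genes, 4.66% for peaks and 3.73% for dips; ribosomal proteins lie farthest to the right with 62 peaks and p53 targets farthest to the left with 6 dips.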

How the data were processed

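The authors deposited raw counts of reads per gene, 1 column per library, with no normalization. Per the labels' protocols, polyadenylated RNA was captured on oligo-dT beads and reverse transcribed with random hexamers; GRCh38 is the build and Subread with featureCounts 2.0.8, STAR 2.7.11b, Salmon 1.10.0 and DRAGEN are the tools listed, without roles, per the submitters' processing notes. Strand setting, multi-mapping and annotation release are not given in the sources used here. Of 79031 rows 99 named no human gene; they held at most 6.79e-06% of a library and were left out.

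Genes were filtered with filterByExpr (minimum count 10, minimum total 15) in edgeR 4.0.16 (R 4.3.3) and tested by its robust quasi-likelihood test with TMM factors, all 11 libraries in 1 fit with day as a factor and Benjamini-Hochberg adjustment over 18245 genes. Standard errors come from the F statistic. The contrast weighted days 1 and 6 by 0.5 each. Shares of counts were tested by exact permutation. In a chi-square test over genes all replicate pairs differed beyond sampling noise. The chi-square per degree of freedom was 7.41 to 17.4 on day 1, 4.07 to 7.86 on day 3 and 15.3 to 30.5 on day 6. The 3 days nevertheless shared 1 estimate of the spread.

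The named genes are the 12 largest protein-coding peaks and dips with day 3 fully apart and a mean of at least 5 CPM, 2 each of other biotypes, up to 2 peaks and 2 dips per list by adjusted p, and OXTR, ACTA2, GJA1, PTGS2, COL1A1 and MKI67; others, such as list members given to complete a group, were chosen after their values were seen. The members and the 41 lists were chosen with earlier results of these data known. Alternatives were RLE factors, library totals, DESeq2 1.42.0, limma-voom 3.58.1, other filters and thresholds, replicate blocks, a straight line in time, equal weight of libraries, thinning and leaving out each library. The test was checked on simulated data. Promoter sequences are from RefSeq and matched 11841 tested genes.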

Additional observations from a re-analysis of the deposited data

Results flagged for a closer look

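Of 302 groups of 4 libraries (days 3 and 6), most of them of the 148 named genes, 16 held a library apart from the other 3 by Dixon's 95% criterion. Chance marks about 1 in 20 groups, which is 15.1 here. On day 3 the libraries apart were those of CCL11 at 1.23 CPM in replicate 3 (others 0.8439 to 0.8839), HLA-E at 1640 CPM in replicate 2 (others 1509 to 1528), RPS16 at 658.2 CPM in replicate 2 (others 584.7 to 593.1) and FZD8 at 35.68 CPM in replicate 3 (others 41.45 to 42.2). Others on day 3 were those of DKK1 at 22.1 CPM in replicate 4 (others 18.53 to 19.03), KCNS3 at 2.219 CPM in replicate 1 (others 2.812 to 2.915) and CCN1 at 381.9 CPM in replicate 2 (others 327.7 to 329.3). On day 6 the libraries apart were those of BGN at 1332 CPM in replicate 1 (others 1030 to 1059), PTGS2 at 2495 CPM in replicate 4 (others 1582 to 1680), HLA-F at 32.67 CPM in replicate 2 (others 26.76 to 27.76), BAX at 82.29 CPM in replicate 3 (others 68.8 to 71) and GREM1 at 1340 CPM in replicate 3 (others 1552 to 1584). Others on day 6 were those of PAPPA at 264.3 CPM in replicate 4 (others 179.6 to 190.7), JAG1 at 9.335 CPM in replicate 3 (others 11.92 to 12.41), PDZK1IP1 at 11.73 CPM in replicate 1 (others 18.08 to 19.37) and S100A9 at 10.58 CPM in replicate 3 (others 4.038 to 4.783).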

How the results depend on the processing

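The 2332 genes called between days 3 and 1, 9102 between days 3 and 6 and 7287 between days 6 and 1 came to 983, 6792 and 4959 at an adjusted p under 0.01, and to 236, 1647 and 1277 with a log2 difference of at least 1. Peaks and dips came to 383 and 248 at 0.01, to 108 and 91 at a log2 difference of 1, and to 472 and 1208 under library totals. Genes above and below the average came to 1686 and 5741 under library totals, to 217 and 317 at a log2 difference of 1, and the lower ones to 1985 at 0.01. RLE factors, DESeq2, limma-voom, both filters, thinning and both other weightings of days 1 and 6 kept all these counts within 1.5 times.

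With each library left out in turn, peaks ranged from 477 to 1009, dips from 345 to 821, genes above the average from 2652 to 3294, genes below it from 2591 to 3352, calls between days 3 and 1 from 1344 to 2998, between days 3 and 6 from 8174 to 9124 and between days 6 and 1 from 5389 to 7262. The ribosomal share ranged from 0.726 to 0.82 percentage points, the mitochondrial from -0.681 to -0.453 and that of the 50 most abundant genes from 2.22 to 2.67. Of 141 named peaks and dips 89 held in all 11 such fits; 50 of the other 52 lost the call against day 1.

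A replicate block for the number in the labels gave 795 peaks and 638 dips, and one for the letter in the column names 620 and 473. Deviations from the day means correlated at -0.023 to 0.103 between samples of the same number and at -0.083 to 0.022 between samples of the same letter. With so few libraries a day these correlations cannot decide whether numbers or letters pair the samples. The cause of the shifts in the numbers of peaks and dips was not tested. Among the fits without 1 library, peaks and dips were fewest without day 1 replicate 2, which leaves 2 libraries on day 1, and levels near 0.1 CPM rest on about 3 counts.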
